A study of Oryza sativa Indica Group with 12 samples.

Results

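H3K9me2-associated chromatin loops were set against H3K4me3-associated chromatin loops in the indica rice variety MH63 (Minghui 63). The members were all loops in the deposited lists for these targets, 5627 for H3K9me2 and 9714 for H3K4me3. They made 15341 of the 64726 loops in the 6 lists of the series. Both lists hold only loops within a chromosome. The study also reports loops between chromosomes, which for H3K9me2 were about as many as those within. Loops between chromosomes, and anchors found only in them, were not part of the comparison. The loops came from long-read ChIA-PET, in which chromatin is immunoprecipitated with an antibody and the ends of DNA fragments held together are ligated and sequenced as paired-end tags (PETs). Leaves of 2-week-old seedlings were used, with 2 replicate libraries for each target, so 4 of the 12 libraries of the series entered the comparison. The other 8 libraries covered RNA polymerase II (RNAPII) in MH63 and all targets in the second variety, ZS97 (Zhenshan 97). No treatment, mutation or transgene was part of the design, and each leaf sample mixed many cell types.

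The authors joined the replicates of a target before calling loops. The spread between replicates therefore could not be measured, and intervals given here are 95% intervals of counting error only (Wilson for shares, order statistics for medians). Where it helps, the lowest and highest of the 12 chromosomes are given too, although chromosomes, loops and bins of 1 nucleus population are not replicates.

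H3K9me2, dimethylation of lysine 9 on histone H3, is a mark of plant heterochromatin that is maintained together with DNA methylation over silenced transposons and is abundant around centromeres. H3K4me3, trimethylation of lysine 4 on the same histone, lies over the first nucleosomes of actively transcribed genes. A ChIA-PET loop joins a pair of anchors, here ChIP-seq peaks of the target that the authors widened, and its PET count is the number of tag pairs that connect them.

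The 2 lists differed in shape before they were placed against each other. The 5627 H3K9me2 loops joined 3245 distinct anchors with a median width of 11.6 kb, while the 9714 H3K4me3 loops joined 10855 distinct anchors with a median width of 1.34 kb. H3K9me2 anchors thus covered 54.5 Mb, or 15.2% of the 359.2 Mb between the chromosome starts and the last listed base, against 16.2 Mb (4.50%) for H3K4me3 anchors. Summed PET counts were close, 55405 in H3K9me2 loops and 55011 in H3K4me3 loops. Both lists started at 4 PETs. Of the H3K9me2 loops, 29.1% had 10 PETs or more, against 6.79% of the H3K4me3 loops. The study's library table gives fewer inter-ligation PETs for H3K9me2 than for H3K4me3 in this variety, and the part of that difference in the results was not tested.

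Loops of the 2 targets occupied different stretches of every chromosome. In 367 bins of 1 Mb, with each loop counted at its midpoint, 134 bins (36.5%) held more H3K9me2 than H3K4me3 loops, 228 held more H3K4me3 loops, and 5 held equal numbers. At least 4-fold more H3K9me2 loops were counted in 81 bins (22.1%), and at least 4-fold more H3K4me3 loops in 185 bins (50.4%). The same counts sorted the bins, so the direction of the next shares and medians is fixed by the sorting and they are a description. The 134 bins rich in H3K9me2 held 86.9% of all H3K9me2 loops and 7.82% of all H3K4me3 loops. Their median counts were 24.5 H3K9me2 loops and 5 H3K4me3 loops per bin, whereas bins with more H3K4me3 loops had medians of 2 H3K9me2 loops and 38 H3K4me3 loops.

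Few bins held loops of 1 target alone. H3K9me2 loops alone were found in 12 bins and H3K4me3 loops alone in 48 bins, while 306 bins held loops of both targets and 1 bin held none. These counts go by loop midpoints, and a midpoint can fall in a bin without anchors of its target. For example, chr3:20000001-21000000 had 2 H3K4me3 loops and 0 H3K4me3 anchors. Only 42 bins had at least 10 loops of each target. The Spearman correlation of the 2 counts over the 367 bins was -0.725, and Pearson's r was -0.447. Within single chromosomes the Spearman correlation ran from -0.883 on chromosome 2 to -0.498 on chromosome 12 and was negative on all 12. Neighbouring bins share domains and loop lengths, so these correlations are a description. H3K9me2 loops were also the more concentrated: 50% of them lay in 34 bins, against 75 bins for 50% of the H3K4me3 loops.

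**Figure D1:**
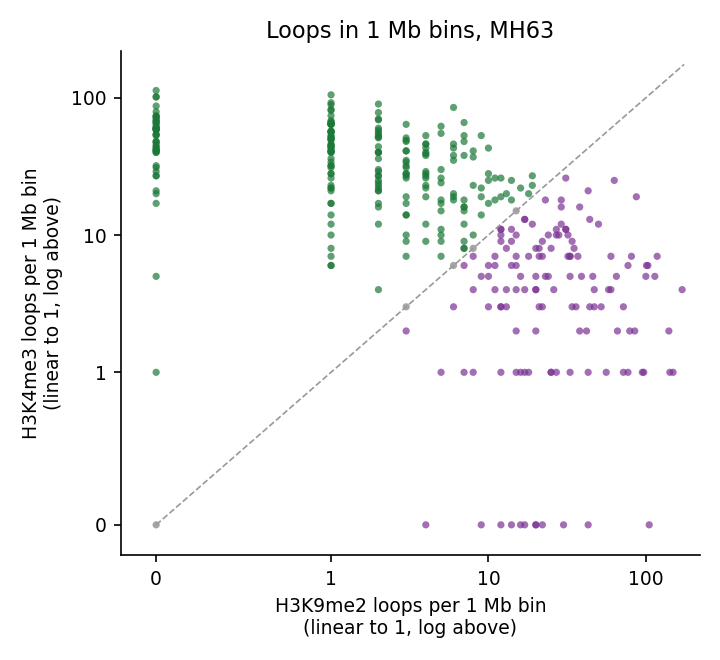
Each point is a 1 Mb bin of the MH63 chromosomes, with its number of H3K9me2 loops on the horizontal axis and of H3K4me3 loops on the vertical axis (both linear to 1 and logarithmic above). Purple points are the 134 bins with more H3K9me2 loops, green points the 228 with more H3K4me3 loops and grey points the 5 with equal numbers, and few points lie near the dashed line of equality at high counts.

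The bin richest in H3K9me2 loops was poor in H3K4me3 loops on most chromosomes. This bin was picked on its H3K9me2 count, which averaged 111.0 ± 31.6 loops (SD over 12 chromosomes, range 72 to 170), so only the H3K4me3 values around it are informative. H3K4me3 loops averaged 2.75 ± 2.42 in the same bins (range 0 to 7). On 10 of the 12 chromosomes that was at most 0.5 times the median bin of the chromosome. The exceptions were chromosome 9, with 6 H3K4me3 loops beside a median of 9, and chromosome 12, with 6 beside a median of 6.5 and 10 of 26 bins lower still. At 8 Mb to the right, the means were 4.83 ± 4.09 H3K9me2 loops and 28.2 ± 12.6 H3K4me3 loops per bin on 12 chromosomes. At 8 Mb to the left they were 4.55 ± 3.88 H3K9me2 loops and 24.1 ± 15.3 H3K4me3 loops on the 11 chromosomes that reach so far. The highest H3K9me2 count, 170 loops with 4 H3K4me3 loops, stood in chr6:14000001-15000000. Next came chr5:11000001-12000000 with 149 H3K9me2 loops and 1 H3K4me3 loop, and chr2:14000001-15000000 with 142 H3K9me2 loops and 1 H3K4me3 loop. The highest H3K4me3 count, 113 loops with 0 H3K9me2 loops, stood in chr2:33000001-34000000 near a chromosome end.

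**Figure D2:**
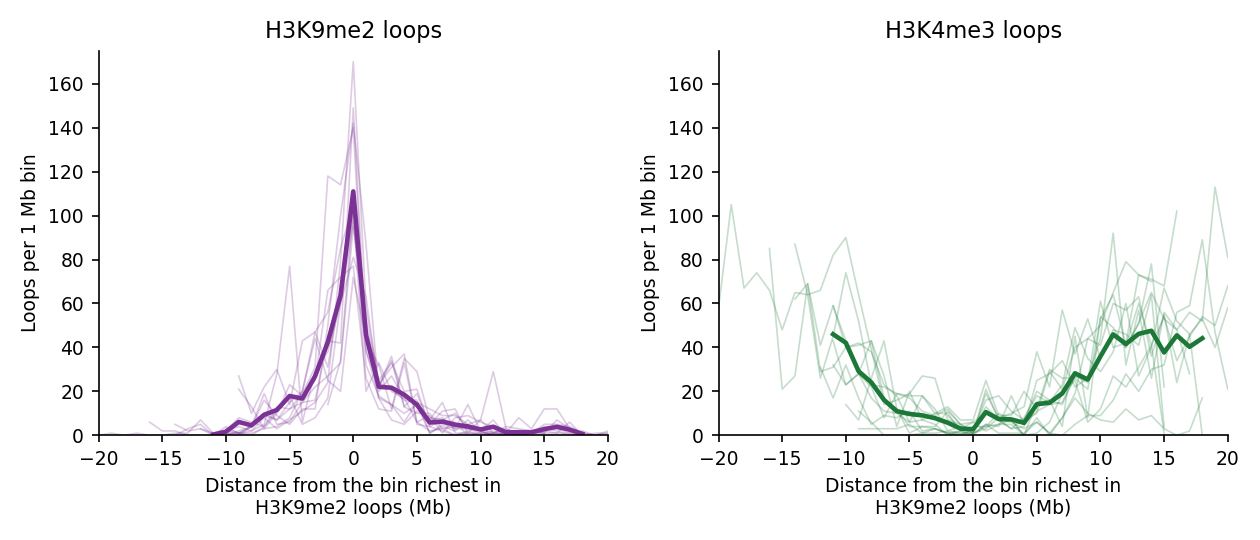
Loops per 1 Mb bin against distance in Mb from the bin richest in H3K9me2 loops on each chromosome, H3K9me2 on the left and H3K4me3 on the right, shown to 20 Mb on each side. Thin lines are the 12 chromosomes and thick lines are means over distances reached by at least 6 of them; H3K4me3 counts of 0 to 7 sit under the H3K9me2 peak of 72 to 170.

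Bins with more H3K9me2 loops were joined into long uninterrupted runs. The longest run on each chromosome spanned 6 to 16 bins. Together these 12 runs made up 119 bins, or 32.4% of all bins, and held 82.0% of the H3K9me2 loops and 6.88% of the H3K4me3 loops. Runs were built from the same counts, so the direction of such shares is fixed and they are a description. On chromosomes 4 and 9 the run began at the first bin and extended to 16 Mb and 11 Mb. On the other 10 chromosomes it lay inside the chromosome, for example from 14 to 20 Mb on chromosome 1 and from 17 to 25 Mb on chromosome 3. The run on chromosome 4 held 526 H3K9me2 loops (93.8% of that chromosome's) and 39 H3K4me3 loops (4.62%). The run on chromosome 11, from 6 to 19 Mb, held the largest share of a chromosome's H3K4me3 loops, 20.2%, beside 83.8% of its H3K9me2 loops. Chromosome 8 had the smallest share of its H3K9me2 loops in the run, 287 of 478, beside 5.20% of its H3K4me3 loops.

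The balance between the targets shifted from chromosome to chromosome. H3K9me2 loops were outnumbered on 10 of the 12 chromosomes and were in excess on chromosomes 11 and 12. The ratio of H3K9me2 to H3K4me3 loops was lowest on chromosome 1 at 0.299 (433 against 1446 loops) and highest on chromosome 11 at 1.69 (444 against 262 loops). Density per Mb changed less for H3K9me2, between 10.5 loops on chromosome 1 and 18.2 on chromosome 8, than for H3K4me3, between 8.65 loops on chromosome 11 and 46.3 on chromosome 3.

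H3K9me2 loops differed with the bin their midpoint lay in. Those in bins with more H3K9me2 loops had a median span, measured between anchor midpoints, of 114.9 kb (interval 108.8 to 121.5 kb, n = 4891), and 31.6% of them had 10 PETs or more (30.3 to 32.9%). Those in bins with more H3K4me3 loops had a median span of 44.2 kb (39.6 to 50.3 kb, n = 704), and 12.8% had 10 PETs or more (10.5 to 15.5%). The share over 1 Mb went the other way, 13.6% of H3K9me2 loops in bins with more H3K9me2 loops and 21.6% in bins with more H3K4me3 loops. H3K4me3 loops had similar median spans in both kinds of bins, 17.4 kb (16.1 to 18.8 kb, n = 760) where H3K9me2 loops prevailed and 16.3 kb (16.0 to 16.6 kb, n = 8922) in bins with more H3K4me3 loops, but 7.63% of them were over 1 Mb in the first kind and 1.29% in the second. Fewer H3K4me3 loops had 10 PETs or more in bins with more H3K9me2 loops, 4.08% (2.89 to 5.73%), than in bins with more H3K4me3 loops, 7.04% (6.53 to 7.59%). A loop over 1 Mb is longer than a bin, so its anchors can lie in bins of the other kind. The shares over 1 Mb therefore tell where midpoints fell and not where anchors lay. Since the loops themselves set which kind a bin is, these values are a description.

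At the scale of single anchors the 2 lists hardly shared a base. An H3K4me3 anchor was overlapped, by at least 1 bp, by 173 of the 3245 H3K9me2 anchors, or 5.33% (4.61 to 6.16%). Seen from the other list, 189 of the 10855 H3K4me3 anchors, or 1.74% (1.51 to 2.00%), overlapped an H3K9me2 anchor, although H3K9me2 anchors covered 15.2% of the chromosomes. Around H3K4me3 anchors the H3K9me2 cover was lower, at a mean of 6.54% in windows of 500 kb, 4.94% in 100 kb and 3.98% in 50 kb. Much of the gap to 15.2% was thus already present in the wider surroundings and was not particular to single anchors. The share of overlapping H3K4me3 anchors was below the H3K9me2 cover on all 12 chromosomes, at 0.907% on chromosome 3 to 2.77% on chromosome 11, beside a cover of 10.5 to 18.6%. H3K9me2 anchors overlapped most often on chromosome 1 (9.49%, 28 anchors) and least often on chromosome 10 (3.42%, 8 anchors). All overlaps together came to 128.0 kb, which was 0.235% of the H3K9me2 anchor bases and 0.793% of the H3K4me3 anchor bases.

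Most overlaps lay at the ends of H3K9me2 anchors. Of 191 overlapping pairs, 147 had the H3K4me3 anchor across an end of the H3K9me2 anchor, 43 had it wholly inside and 1 had the H3K9me2 anchor inside the H3K4me3 anchor. The median overlap was 0.532 kb, and the 43 inside anchors lay a median of 0.547 kb from the nearer H3K9me2 end. The authors had extended the ChIP-seq peaks by 10% on each side to make anchors. With each anchor cut back by that much, taken as 10% of the peak's width, 8 of 3245 H3K9me2 anchors (0.247%, 0.125 to 0.486%) and 8 of 10887 H3K4me3 anchors (0.0735%, 0.0372 to 0.145%) still overlapped. The overlap count therefore rested on the extension, while the median distances without it were 59.4 kb from H3K9me2 and 148.1 kb from H3K4me3 anchors.

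Density of anchors was also counted by midpoints, on the same extended anchors. It was not counted again without the extension, so the values inside anchors are not separate from the overlaps above. By midpoints, 89 H3K4me3 anchors lay inside H3K9me2 anchors, or 1.63 per Mb, against 35.3 per Mb in the rest of the chromosomes, which was 21.6-fold higher. H3K4me3 anchor density was 21.6 per Mb within 5 kb of an H3K9me2 anchor, 19.0 per Mb at 5 to 10 kb, 28.5 per Mb at 25 to 50 kb, 39.1 per Mb at 100 to 200 kb and 49.8 per Mb beyond 500 kb. The step from inside to the first 5 kb was larger than any later step. H3K9me2 anchor midpoints went up more evenly with distance from H3K4me3 anchors, from 7.85 per Mb at 5 to 10 kb to 12.3 per Mb at 50 to 100 kb and 16.2 per Mb beyond 500 kb. The width of H3K9me2 anchors, at a median of 11.6 kb, itself keeps their midpoints away from H3K4me3 anchors. That applies below 5 kb and in part also at 5 to 10 kb and somewhat beyond.

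**Figure D3:**
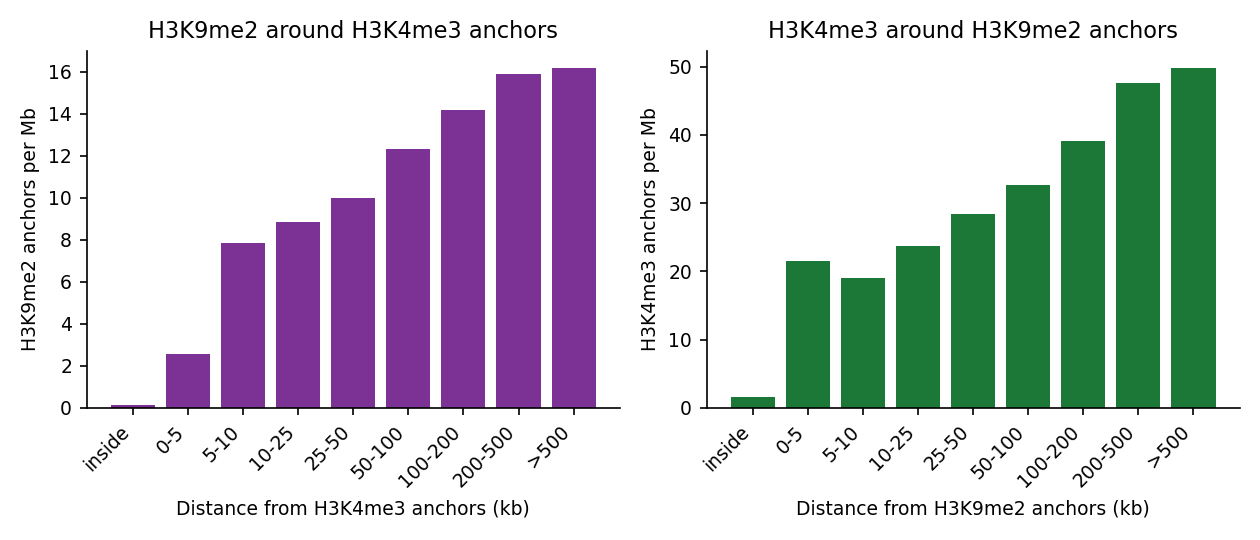
Anchors per Mb by distance in kb from the other target's anchors, with H3K9me2 anchors around H3K4me3 anchors on the left and H3K4me3 anchors around H3K9me2 anchors on the right (midpoints counted, bars start at 0). H3K4me3 density was 1.63 per Mb inside H3K9me2 anchors, 21.6 per Mb in the first 5 kb outside them and 49.8 per Mb beyond 500 kb.

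Overlap differed with the width of the H3K9me2 anchor. With H3K9me2 anchors ranked by width and divided into 4 equal groups, 2.83%, 4.81%, 7.64% and 6.04% overlapped an H3K4me3 anchor from the narrowest group to the widest. The numbers of overlaps were 23, 40, 70 and 58. Per Mb of anchor they were 7.52, 5.80, 5.64 and 1.81, a measure that goes down with width where overlaps lie at anchor ends. No H3K9me2 anchor overlapped more than 2 H3K4me3 anchors, 155 overlapped 1 and 18 overlapped 2. Among those 18, the H3K9me2 anchor at chr1:33316-40286 had an H3K4me3 anchor across each end, at chr1:32376-33847 with 3 loop partners and at chr1:39971-41860 with 6 loop partners. The H3K9me2 anchor between them had 3 partners of its own.

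Overlapping anchors were also set against RNAPII anchors. RNAPII is the enzyme that transcribes protein-coding genes, and its 7260 MH63 anchors covered 7.68% of the chromosomes. An RNAPII anchor was overlapped by 36 of the 173 H3K9me2 anchors that overlapped H3K4me3 (20.8%, 15.4 to 27.5%), against 4.56% (3.87 to 5.35%) of the other H3K9me2 anchors. Among H3K4me3 anchors the order was the other way round, with 34 of the 189 that overlapped H3K9me2 (18.0%, 13.2 to 24.1%) against 31.3% (30.4 to 32.2%) of the rest. Over the whole lists, 31.0% of H3K4me3 and 5.42% of H3K9me2 anchors overlapped RNAPII. The higher share among H3K9me2 anchors picked for meeting H3K4me3 thus follows in part from the pick. All these shares use the extended anchors and are a description. H3K9me2 anchors that overlapped H3K4me3 were also wider, at a median of 14.9 kb against 11.4 kb, and the part of width in the RNAPII shares was not tested. H3K4me3 anchors that overlapped H3K9me2 had a mean of 1.53 loop partners, against 1.79 for the others, and 9.52% of them had 3 partners or more, against 19.7%.

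Most anchors lay nearer to an anchor of their own list than to one of the other list. The nearest H3K4me3 anchor was a median of 57.8 kb (53.3 to 64.1 kb) from an H3K9me2 anchor, measured between facing ends, whereas the nearest other H3K9me2 anchor was 7.69 kb away. From H3K4me3 anchors the nearest H3K9me2 anchor was a median of 146.6 kb (142.1 to 151.5 kb) away, and the nearest other H3K4me3 anchor 6.21 kb. Within 10 kb of the other list stood 23.9% of the H3K9me2 anchors and 9.36% of the H3K4me3 anchors, and beyond 500 kb stood 7.61% of the H3K9me2 anchors and 15.6% of the H3K4me3 anchors. The other list was nearer than the anchor's own list for 27.4% of H3K9me2 anchors and 8.35% of H3K4me3 anchors. Every anchor has a loop partner in its own list on the same chromosome. Nearness to the own list thus follows in part from how the lists are made. The lists hold unequal numbers of anchors, 3245 for H3K9me2 and 10855 for H3K4me3. The distances in the 2 directions should therefore not be read against each other, and the shares nearer the other list also depend on these numbers. Among loops with 6 PETs or more the medians were 208.9 kb from H3K9me2 and 377.3 kb from H3K4me3 anchors, and among loops of up to 1 Mb the median from H3K4me3 anchors was 224.7 kb, so these distances are those of the lists as called.

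**Figure D4:**
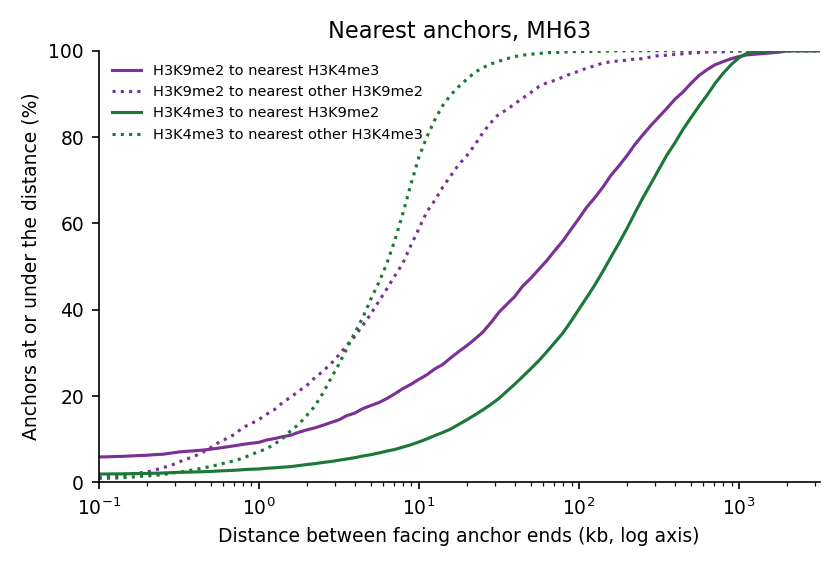
Share of anchors (%) whose nearest anchor lies at or under a distance in kb (log axis), for H3K9me2 (purple) and H3K4me3 (green), with solid lines for the other target's anchors and dotted lines for the target's own. Solid lines cross 50% at 57.8 kb from H3K9me2 and 146.6 kb from H3K4me3 anchors, and dotted lines at 7.69 kb and 6.21 kb.

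Distances are given next by kind of bin. The counts that sort the bins place H3K4me3 anchors far from H3K9me2 anchors in some and near in others, so the direction of these values is fixed by the split and they are a description. H3K9me2 anchors in bins with more H3K9me2 loops lay a median of 103.0 kb from H3K4me3 anchors and 3.54% of them overlapped one. H3K9me2 anchors in bins with more H3K4me3 loops lay 13.2 kb away and 10.1% overlapped. For H3K4me3 anchors the medians were 17.8 kb where H3K9me2 loops prevailed (8.27% overlapping) and 173.0 kb elsewhere (1.04% overlapping). By chromosome, the median from H3K9me2 anchors went from 18.9 kb on chromosome 1 to 179.8 kb on chromosome 11. From H3K4me3 anchors it went from 90.2 kb on chromosome 12 to 249.5 kb on chromosome 3. The most isolated H3K9me2 anchor, chr4:3119723-3162933, was 2034 kb from any H3K4me3 anchor. The most isolated H3K4me3 anchor, chr3:4795442-4796363, was 1537 kb from any H3K9me2 anchor.

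Read along the chromosomes, anchors of the 2 targets alternated in runs. Of 14088 pairs of neighbouring anchors, 85.9% were of the same target, while mixing single anchors in the proportions of the lists would give 64.6%. Anchors enter a list as pairs joined by a loop of the same target, which by itself favours neighbours of the same target. The 2 shares are therefore a description. There were 994 runs of H3K9me2 anchors and 999 runs of H3K4me3 anchors. H3K9me2 runs had a median of 1 anchor and a mean of 3.26, and 508 of them were a lone H3K9me2 anchor between H3K4me3 anchors. H3K4me3 runs had a median of 3 anchors and a mean of 10.9. The longest H3K9me2 run held 49 anchors over 4.11 Mb on chromosome 4, and the longest H3K4me3 run held 229 anchors over 3.05 Mb on chromosome 3.

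Loops of the 2 targets were next compared by their whole extent, from the outer end of one anchor to the outer end of the other. A loop was nested when it lay wholly within a loop of the other list, and a pair crossed when the loops shared bases and neither held the other. Among loops of up to 1 Mb in both lists, most shared no base with the other target's loops. No base was shared with any H3K4me3 loop by 3242 of 4798 H3K9me2 loops (67.6%, 66.2 to 68.9%), and none with any H3K9me2 loop by 8283 of 9540 H3K4me3 loops (86.8%, 86.1 to 87.5%). H3K9me2 loops of this length covered 36.7% of the chromosomes, H3K4me3 loops 32.2%, and loops of both targets only 5.67%.

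Where such loops were nested, H3K9me2 loops were usually the outer ones, in 2396 nested pairs against 298 with the H3K4me3 loop outside. Another 1381 pairs crossed. H3K9me2 loops were also the longer, with a median span over the whole list of 104.6 kb against 16.3 kb for H3K4me3 loops. A longer loop can hold a shorter one and not the reverse, and the part of length in these pair counts was not tested. At least 1 H3K4me3 loop was held by 968 of the 4798 H3K9me2 loops (20.2%, 19.1 to 21.3%), and 169 of the 9540 H3K4me3 loops held an H3K9me2 loop (1.77%, 1.53 to 2.06%). Nested in the other list were 226 H3K9me2 loops (4.71%, 4.15 to 5.35%) and 891 H3K4me3 loops (9.34%, 8.77 to 9.94%). Crossing involved 798 H3K9me2 loops (16.6%, 15.6 to 17.7%) and 510 H3K4me3 loops (5.35%, 4.91 to 5.82%). Longer H3K9me2 loops held H3K4me3 loops more often, at 3.48% up to 50 kb, 16.5% at 50 to 200 kb and 39.9% at 200 kb to 1 Mb. With 6 PETs or more in both lists, 8.73% of the H3K9me2 loops of up to 1 Mb held an H3K4me3 loop, and 1.34% were nested in one.

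Nesting was far more frequent with loops over 1 Mb included. Over all loops, 4872 of 5627 H3K9me2 loops (86.6%) were nested in an H3K4me3 loop and 8518 of 9714 H3K4me3 loops (87.7%) were nested in an H3K9me2 loop. These shares came from a small number of long loops: 829 H3K9me2 loops (14.7%) and 174 H3K4me3 loops (1.79%) were over 1 Mb. The 174 long H3K4me3 loops held 4853 of the nested H3K9me2 loops, and the 829 long H3K9me2 loops held 8493 of the nested H3K4me3 loops. Of the long loops, 43.3% of H3K9me2 loops and 87.9% of H3K4me3 loops had the lowest PET count listed, 4, and no long H3K4me3 loop had more than 7. Over all loops, 1461 H3K9me2 loops (26.0%) and 819 H3K4me3 loops (8.43%) crossed the other list, and 1784 H3K9me2 loops (31.7%) and 331 H3K4me3 loops (3.41%) held a loop of it.

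**Figure D5:**
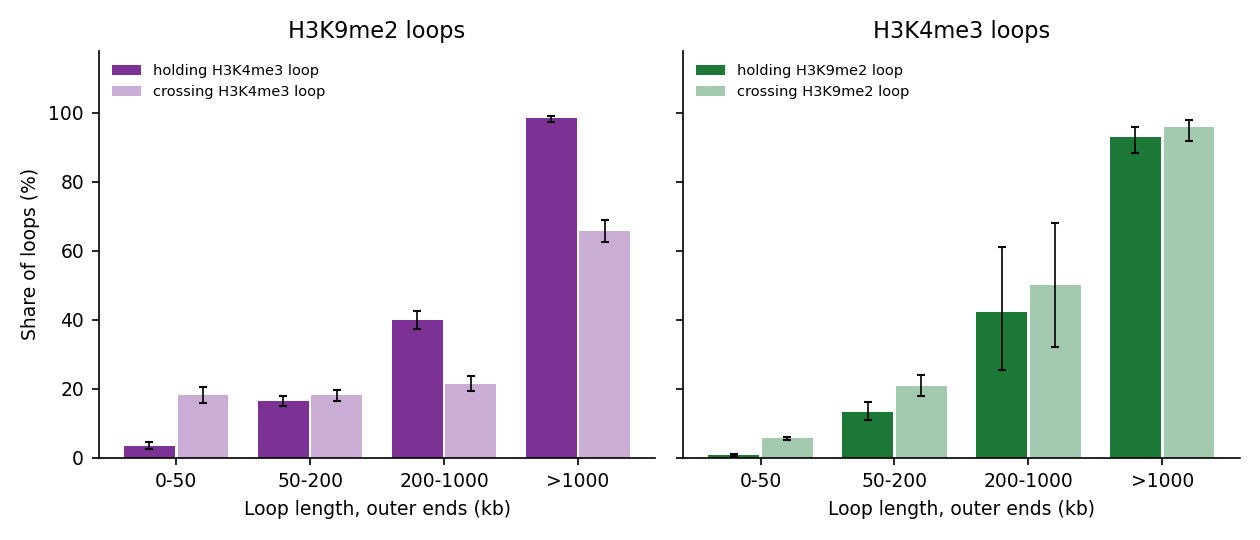
Share of loops (%) that held (dark) or crossed (light) at least 1 loop of the other target, by the loop's own length in kb, for H3K9me2 loops on the left and H3K4me3 loops on the right, with 95% Wilson intervals of counting error. Holding went up with length to 98.4% of the 829 H3K9me2 loops and 93.1% of the 174 H3K4me3 loops over 1 Mb.

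Single long H3K4me3 loops held nearly all H3K9me2 loops of some chromosomes. On chromosome 3, 1 H3K4me3 loop of 30.5 Mb with 4 PETs held 605 of the 611 H3K9me2 loops. On chromosome 1, 1 H3K4me3 loop of 37.9 Mb with 4 PETs held 424 of the 433 H3K9me2 loops. Chromosome 10 had 3 H3K4me3 loops over 1 Mb, and no H3K4me3 loop there held more than 6 H3K9me2 loops. The nested share of H3K9me2 loops was 3.52% on chromosome 10, against 72.5% to 99.6% on the other 11 chromosomes. Among loops of up to 1 Mb it ran from 1.66% on chromosome 4 to 5.47% on chromosome 6, with 17.5% on chromosome 1. There 63 of 359 H3K9me2 loops were nested, 47 of them in a single H3K4me3 loop with 4 PETs, and without that loop the share was 5.57% (3.63 to 8.45%).

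Loops of up to 1 Mb that met the other target were longer or shorter than those apart from it, depending on how they met. A holding loop must be longer than the loop it holds, and a nested loop shorter, so these lengths follow in part from the classes and are a description. H3K9me2 loops that held an H3K4me3 loop had a median span of 213.1 kb (192.4 to 231.5 kb), against 65.7 kb (61.7 to 69.1 kb) for H3K9me2 loops that shared no base with the other list. H3K9me2 loops that only crossed had a median span of 50.2 kb (42.8 to 59.2 kb), and those nested without holding 24.3 kb (21.3 to 28.8 kb). Fewer of the holding loops had 10 PETs or more, 27.5% (24.8 to 30.4%) against 33.8% (32.2 to 35.5%). Nested H3K4me3 loops had a median span of 15.1 kb (14.4 to 16.0 kb), close to the 15.8 kb (15.5 to 16.1 kb) of H3K4me3 loops apart from H3K9me2 loops, and 6.29% (4.87 to 8.07%) against 7.04% (6.51 to 7.61%) had 10 PETs or more. H3K4me3 loops that only crossed had a median span of 24.7 kb (22.4 to 26.7 kb), and those that held an H3K9me2 loop without being nested 51.8 kb (47.8 to 58.9 kb).

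A few loci show the arrangements. The H3K9me2 loop of up to 1 Mb that held most joined chr4:26968420-26996045 to chr4:27485122-27494240 with 4 PETs and had 29 H3K4me3 loops inside it. The H3K4me3 loop of up to 1 Mb that held most joined chr1:16913974-16915558 to chr1:17500248-17501734 with 4 PETs and had 47 H3K9me2 loops inside it. The bin chr3:17000001-18000000, highest by the smaller of its counts, held 31 H3K9me2 loops with a median span of 102.9 kb and 26 H3K4me3 loops with a median span of 17.0 kb. It had 23 H3K9me2 and 29 H3K4me3 anchors, and 1 of the H3K4me3 anchors overlapped an H3K9me2 anchor. In the next such bin, chr1:17000001-18000000, 63 H3K9me2 loops and 25 H3K4me3 loops were counted, with 4 of 28 H3K4me3 anchors overlapping. It was followed by chr5:12000001-13000000 with 43 H3K9me2 loops and 21 H3K4me3 loops, and 3 of its 23 H3K4me3 anchors overlapped. Over the whole list 1.74% of H3K4me3 anchors overlapped an H3K9me2 anchor. In bins with more H3K9me2 loops, the kind of all 3 bins named here, it was 8.27%. Counts this small do not set these bins apart from their kind.

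Loops of the 2 targets almost never joined the same pair of sites. Both anchors met the other list's anchors in 38 H3K9me2 loops (0.675%) and 21 H3K4me3 loops (0.216%), and neither anchor did in 4961 H3K9me2 loops (88.2%) and 9445 H3K4me3 loops (97.2%). In 7 pairs of loops the same 2 ends were shared, and the smaller PET count of a pair was at most 5. The leading pair lay on chromosome 2, where an H3K9me2 loop between chr2:13076875-13142139 and chr2:13148502-13163049 had 53 PETs and an H3K4me3 loop between chr2:13137473-13138785 and chr2:13147596-13148991 had 5 PETs. A second pair stood at the start of chromosome 6, with 5 PETs in the H3K9me2 loop between chr6:0-8328 and chr6:25827-43277 and 5 PETs in the H3K4me3 loop between chr6:7813-9328 and chr6:25569-27030. On chromosome 6 both H3K4me3 anchors lay across an end of an H3K9me2 anchor, and on chromosome 2 the right anchor did so while the left lay inside. All of these overlaps are between anchors as extended by the authors. With the extension cut back, 8 of 3245 H3K9me2 anchors overlapped any H3K4me3 anchor, and shared pairs were not counted again.

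ZS97, profiled in the same way on its own genome, gave the following values. Its H3K9me2 anchors overlapped H3K4me3 anchors in 5.23% of cases and its H3K4me3 anchors overlapped H3K9me2 anchors in 1.497%. The median distance from H3K9me2 anchors was shorter in ZS97, 42.7 kb (38.4 to 46.5 kb), than in MH63, 57.8 kb (53.3 to 64.1 kb), and that from H3K4me3 anchors was 145.3 kb in ZS97 beside 146.6 kb in MH63. More H3K9me2 than H3K4me3 loops were found in 114 of 353 bins, with a Spearman correlation of -0.692. Among loops of up to 1 Mb, 27.1% of ZS97 H3K9me2 loops held an H3K4me3 loop and 12.3% of ZS97 H3K4me3 loops were nested, against 20.2% and 9.34% in MH63. The ZS97 lists were larger, with 6933 H3K9me2 and 12279 H3K4me3 loops on 346.5 Mb, against 5627 and 9714 loops on 359.2 Mb in MH63. Their summed PET counts were also higher, 95474 for H3K9me2 and 76602 for H3K4me3, against 55405 and 55011. Such distances and shares change with list size, and the part of list size and depth in these differences was not tested. The difference between varieties could not be tested with 1 joined list of each.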

How the data were processed

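Loop lists were used as deposited, 1 for each target and variety. Per the labels and the methods, the authors mapped long-read ChIA-PET reads with ChIA-PET Tool (version not given in the sources used here). Reads of each variety were mapped to its own genome from the Rice Information GateWay. The authors took ChIP-seq peaks extended by 10% on each side as given anchors, joined the 2 replicates, and kept clusters by FDR and PET count. The deposited columns hold the anchors, a PET count for each loop, and a p-value and FDR, of which FDR only ordered loops of equal PET count when the H3K4me3 list was shortened. Coordinates are printed as the lists give them, and a start of 0 occurs, so starts may count from 0.

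Overlapping intervals of a list were joined into distinct anchors, overlap needed 1 bp, and distance ran between facing ends, with overlap at 0. Bins of 1 Mb took loops by midpoint. Chromosome length was the last listed base. With replicates joined there is no spread over samples, so no p-values were computed. All loops were kept, and loops of up to 1 Mb were also analysed apart. Python 3.11.15, numpy 2.4.6, pandas 2.3.3 and scipy 1.17.1 were used, and interval code was checked against brute force on simulated loops. Named loci were the leading 3 pairs of loops sharing both ends (2 printed), the loop of each target holding most loops, the anchor with most overlaps, the strongest loop of each target with both anchors overlapping (not printed), the 3 bins highest by the smaller count and the farthest anchors; bins with the highest counts and chromosome-wide H3K4me3 loops were named after their values were seen. Members, measures and rules were chosen with earlier results of these data known. Alternatives varied PET count, loop length, list size, overlap, distance, nesting rule, bin size and anchor extension. The ZS97 RNAPII list was not used here. No genome of the MH63 build was at hand, so neither sequences nor gene names are given.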

Additional observations from a re-analysis of the deposited data

How the results depend on the processing

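Of 75 recomputed values, 25 moved by less than their counting interval (for the correlation, than its SD over chromosomes; for bins, by less than 1.5 times), and 50 moved by more. The Spearman correlation, the single measure here that can change sign, was negative under all 7 of its alternatives. In the order H3K9me2 anchors overlapping, H3K4me3 anchors overlapping, median distance from H3K9me2 and from H3K4me3 anchors, H3K4me3 loops nested, H3K9me2 loops holding, H3K4me3 loops crossing and H3K9me2 loops nested, a PET count of at least 6 gave 2.45%, 1.12%, 208.9 kb, 377.3 kb, 58.5%, 15.3%, 3.88% and 15.8%. A PET count of at least 10 gave 0.407%, 0.432%, 1070 kb, 1603 kb, 5.91%, 3.79%, 1.06% and 0.0611%, and a Spearman correlation of -0.512. The higher counts leave fewer loops. Loops of up to 1 Mb gave 65.0 kb and 224.7 kb from H3K9me2 and H3K4me3 anchors, with 9.34% nested, 20.2% holding, 5.35% crossing and 4.71% of H3K9me2 loops nested. The H3K4me3 list shortened to the number of H3K9me2 loops gave 3.42% of H3K9me2 anchors overlapping, 107.0 kb from H3K9me2 anchors, 25.8% holding, 6.49% crossing and 59.6% of H3K9me2 loops nested. Overlap of 50% of the narrower anchor gave 2.50% of H3K9me2 and 0.829% of H3K4me3 anchors. Midpoint distances were 68.1 kb from H3K9me2 and 153.9 kb from H3K4me3 anchors. Inner ends gave 30.1% holding. More H3K9me2 loops were found in 268 bins of 0.5 Mb and in 70 bins of 2 Mb, since the number of bins changes with their size.

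Added after seeing the data were 5 settings. H3K9me2 loops of up to 1 Mb against all H3K4me3 loops gave 9.17% nested, 20.2% holding, 5.78% crossing and 87.7% of H3K9me2 loops nested. Inner ends with loops of up to 1 Mb gave 9.004%, 18.3%, 5% and 3.94%, and 6 PETs or more with loops of up to 1 Mb gave 4.23%, 8.73%, 3.45% and 1.34%. Anchors without the extension overlapped in 0.247% (H3K9me2) and 0.0735% (H3K4me3). Without the H3K4me3 loop holding most, 5.57% of the chromosome 1 H3K9me2 loops of up to 1 Mb were nested, against 17.5% with it. No paired analysis was possible because each target had a single list made from both replicates, and leaving out a replicate was not run for that reason. Contacts under 4 PETs and loops between chromosomes are not in the lists.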
